A study of Mus musculus with 6 samples.

Results

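Oxidative phosphorylation genes were described in healing mouse skin, one protein complex at a time. They were taken by symbol: every gene with its own probe set on an Affymetrix mouse gene array whose symbol begins with Nduf, Uqcr, Cox4 to Cox8 or Atp5, together with Sdha, Sdhb, Sdhc and Sdhd. The rule found 89 of the 19938 genes measured, and all 89 symbols are current in RefSeq. Of the genes with several probe sets, the brightest one was used. RefSeq lists 96 protein-coding mouse genes of this kind, so 7 were not analysed here, among them Cox7c, Ndufb4 and Ndufb4b, which share a probe set with another symbol. The symbols do not match the complexes exactly. They bring in 7 assembly factors of complex I, the NDUFA4 protein (now counted with complex IV) and its paralogue, and Cox7a2l, a factor of supercomplexes, and they leave out Cyc1 and the subunits encoded in mitochondrial DNA.

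Skin came from male mice of the inbred albino strain BALB/c, aged 5 to 6 weeks. Wounded mice had 2 punch wounds of 4 mm on the back, cut down to the fascia. Biopsies of 8 mm taken on day 1 or day 4 held the wound and the skin around it. By these diameters the wound as cut was 25% of the biopsy area, and its share at biopsy was not measured here. Intact skin was the control. Each of the 3 groups had 2 arrays, and whether animals were pooled for an array is not in the labels, so n counts arrays and the p-values measure the spread between these samples. In whole skin, fewer cells of a type and less RNA per cell cannot be told apart.

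Oxidative phosphorylation takes place in the inner mitochondrial membrane. Complex I accepts electrons from NADH and complex II from succinate, ubiquinone and cytochrome c carry them through complexes III and IV to oxygen, and ATP synthase uses the proton gradient that complexes I, III and IV build. Most subunits are encoded in the nucleus and made in every cell type, but several subunits of complex IV exist as a common form and a form restricted to striated muscle, lung or testis. Mouse skin also carries a thin sheet of striated muscle beneath its fat, a tissue rich in mitochondria.

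The array medians over all probe sets were 6.89 to 6.93 log2 units. The authors' processing (RMA) brings arrays to a common distribution, so these medians do not measure their original brightness. RNA integrity numbers ran from 7.7 to 9.1. Keratinocyte genes such as Krt5, at 12.60 to 12.71, marked the tissue as skin. The wounds differed from intact skin in RNA markers of several cell types. The counts of markers are to be read against all genes, of which limma called 29.3% on day 1 and 26.9% on day 4. All 9 neutrophil markers were higher on day 1 (median log2 change 4.75) and on day 4 (3.87), and all 9 monocyte and macrophage markers were higher on both days (1.82 and 2.13). Of 16 skeletal muscle markers, 13 were higher on day 1 and 8 on day 4, with none lower. Of 11 hair shaft and root sheath markers, 8 were lower on day 1 and 4 on day 4, and the arrays of a wound group differed in them: the median change was -2.95 and -6.25 on the day 1 arrays and -1.73 and -5.78 on the day 4 arrays. All 4 melanocyte markers were lower on day 1 and 2 on day 4. Epidermal markers were higher for 3 of 5 genes on each day. The part of these cell types in the values below was not tested.

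Most of the oxidative phosphorylation genes kept close to their intact level at both times. On day 1, 5 of 89 were higher and 6 lower, or 12.4%, by limma with p-values adjusted over all genes at a threshold of 0.05, against 29.3% of all genes (14.7% higher and 14.6% lower). On day 4, 5 were higher and 6 lower, again 12.4%, against 26.9% of all genes (14.8% higher and 12.1% lower). The median log2 change was -0.01 on day 1 and -0.02 on day 4, and over all genes it was -0.04 and -0.03. For 76 members on day 1 and 77 on day 4 the 95% confidence interval of the change lay within 0.5 log2 units of 0. Between day 4 and day 1, 2 members were higher and 1 lower, or 3.37%, against 2.23% of all genes (1.09% higher and 1.14% lower). Both days were compared with the same intact arrays, so the comparisons are not independent.

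In all, 16 members passed in at least 1 of the 3 comparisons. Of these, 6 passed on both days with the same sign: Ndufa4l2 and Sdhd were higher, and Cox4i2, Ndufb10, Ndufc1 and Ndufs6 lower. Another 5 passed against intact skin on day 1 only, namely the muscle isoforms Cox6a2, Cox7a1 and Cox8b, all higher, and Cox7a2l and Ndufs5, both lower. The remaining 5 passed on day 4 only: Ndufb5, Atp5c1 and Uqcr11 were higher, and Ndufs8 and Uqcr10 lower. A test over the 3 groups at once passed for 14 members, against 30.7% of all genes. Of the 89 genes only Cox7b2, a testis isoform at 3.90 to 4.41, lay below the lower quartiles over all probe sets (5.29 to 5.37). Cox8c (5.91 to 6.06), Ndufaf6 (5.90 to 6.16) and Cox6b2 (down to 5.94) came close to the lower quartiles over genes (5.77 to 5.88).

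**Figure D1:**
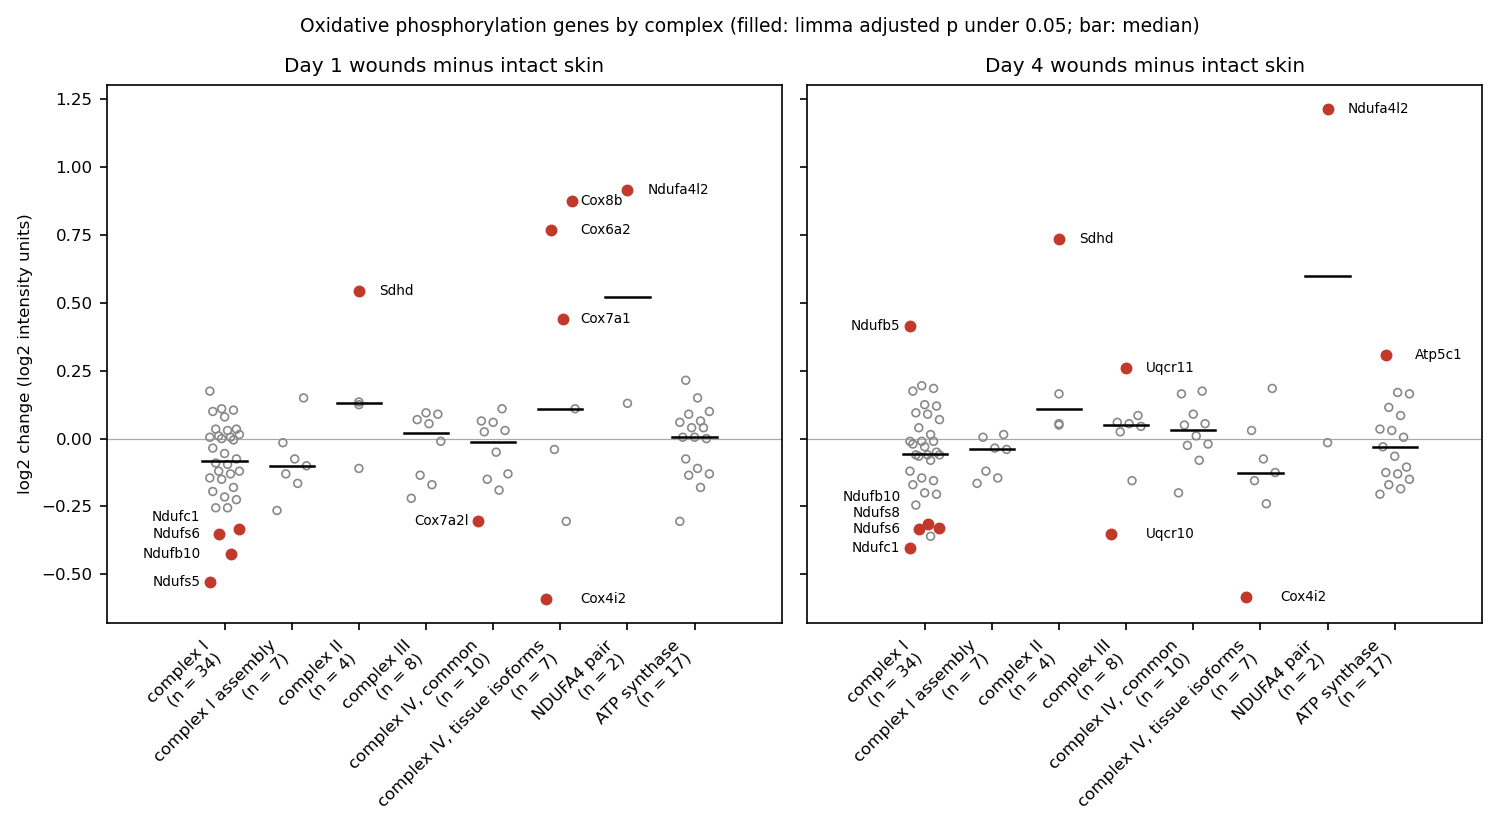
Log2 change of each of the 89 genes on day 1 (left) and day 4 (right) against intact skin, by complex. Each point is a gene, filled and named where limma's adjusted p was under 0.05, and bars are medians. Most points lie within 0.25 log2 units of 0, and the largest changes belong to Ndufa4l2, the muscle isoforms Cox8b and Cox6a2 on day 1, Sdhd and Cox4i2.

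Complex I, the NADH dehydrogenase, was measured through 34 subunits, 6 of the catalytic core and 28 accessory ones. On day 1, 4 were lower and none higher (11.8%, against 29.3% of all genes), with a median change of -0.08. On day 4, 4 were lower and 1 higher (14.7%, against 26.9% of all genes), with a median of -0.06. The 4 genes that fell on day 1 are all among the 28 accessory subunits (14.3% of them), which make up most of the 34. No subunit passed between day 4 and day 1, against 2.23% of all genes. There, limma gave an unadjusted p under 0.05 for 4 of the 34, against 3765 of all 19938 genes.

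Ndufb10, an accessory subunit of the membrane arm, was at 7.88 and 7.76 log2 units in intact skin, 7.41 and 7.38 on day 1 and 7.50 and 7.51 on day 4. Every wound array was below both intact arrays. Expression fell by 0.43 ± 0.08 (SE, here and below) on day 1 (adjusted p = 0.00786) and by 0.32 ± 0.08 on day 4 (adjusted p = 0.0263). Ndufc1, another small membrane arm subunit, was at 9.65 on both intact arrays, 9.30 and 9.33 on day 1 and 9.29 and 9.20 on day 4, again with no overlap. Its changes were -0.34 (adjusted p = 0.0161) and -0.41 (adjusted p = 0.00963), and a second probe set of the gene gave -0.36 and -0.28.

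Ndufs6, a zinc-binding subunit at the base of the matrix arm, was at 8.74 and 8.87 in intact skin, 8.45 and 8.46 on day 1 and 8.40 and 8.54 on day 4. All 4 wound arrays were lower than the intact ones. The changes were -0.35 (adjusted p = 0.0254) and -0.34 (adjusted p = 0.0323). Ndufs5, an accessory subunit on the intermembrane side, varied more between replicates, with 8.29 and 8.06 in intact skin, 7.53 and 7.76 on day 1 and 7.74 and 7.89 on day 4. It fell by 0.53 ± 0.12 on day 1 (adjusted p = 0.0192), and the change of -0.36 on day 4 did not pass (adjusted p = 0.0727).

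The core of complex I holds the flavin and the iron-sulfur clusters. Of its 6 nuclear subunits measured, only Ndufs8, which carries 2 of these clusters, passed, and on day 4 alone. It was at 10.54 and 10.48 in intact skin, 10.25 and 10.34 on day 1 and 10.12 and 10.24 on day 4. The wound arrays were lower than the intact arrays on both days, with a change of -0.21 on day 1 that did not pass (adjusted p = 0.0974) and of -0.33 on day 4 (adjusted p = 0.0282). The other core subunits were between -0.15 (Ndufv2) and 0.01 (Ndufs3 and Ndufs7) on day 1, with none past the threshold. In the other direction, the membrane arm subunit Ndufb5 was at 9.68 and 9.80 in intact skin, 9.91 and 9.92 on day 1 and 10.19 and 10.12 on day 4. It rose by 0.42 ± 0.08 on day 4 (adjusted p = 0.0114), and the day 1 change of 0.18 did not pass (adjusted p = 0.146).

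The complex I calls were not all kept when 1 array was left out. Such a fit has 1 array in a group and fewer residual degrees of freedom, so a lost call need not mean a changed estimate. With intact array 1 or 2 left out, the Ndufc1 change stayed at -0.335 on day 1 and -0.405 on day 4. The day 1 call of Ndufb10 was lost without intact array 1 (adjusted p = 0.0576) and that of Ndufs5 without intact array 1 (0.115) or day 1 array 1 (0.0916), while those of Ndufc1 and Ndufs6 were lost without any 1 of the 4 arrays compared, at adjusted p of 0.0643 to 0.083 and 0.0598 to 0.132. On day 4, Ndufb5 was lost without intact array 1 (0.0776) and Ndufc1 without either intact array or day 4 array 2 (0.0513 to 0.0624). Ndufb10 and Ndufs8 were lost without any 1 of the 4 arrays compared (0.0583 to 0.143 and 0.0532 to 0.143), and Ndufs6 without any 1 of the 6 (0.0536 to 0.152). Over all genes, too, calls on day 1 became fewer once intact array 1 was left out.

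The 7 assembly factors of complex I, which help to build the enzyme and leave it when it is complete, gave no call in any comparison. Their median changes were -0.10 on day 1 and -0.04 on day 4. The largest was -0.27 for Ndufaf3 on day 1 (adjusted p = 0.0773), and the highest was 0.15 for Ndufaf4. On day 1 limma's unadjusted p was under 0.05 for Ndufaf3 alone of the 7, against 8113 of all 19938 genes.

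Complex II, succinate dehydrogenase, links the citrate cycle to the chain and has 4 subunits, all encoded in the nucleus. Sdhd, the small subunit that anchors the enzyme in the membrane, was higher on both days, and the other subunits did not pass. Sdhd was at 8.80 and 8.81 in intact skin, 9.30 and 9.40 on day 1 and 9.52 and 9.56 on day 4. The groups did not overlap, and the spread within each was small. It rose 1.46-fold on day 1 (log2 change 0.55 ± 0.07, adjusted p = 0.00279) and 1.66-fold on day 4 (0.73 ± 0.07, adjusted p = 0.0013), and the calls held without any 1 array. The step from day 1 to day 4 was 0.19 and did not pass (adjusted p = 0.238).

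Sdha, the flavoprotein that oxidises succinate, was at 9.94 and 9.93 in intact skin, 10.03 and 10.09 on day 1 and 10.11 and 10.09 on day 4. Sdhb, the iron-sulfur subunit, was at 9.80 and 9.91, then 9.72 and 9.77, then 9.88 and 9.94. Sdhc, the second membrane anchor, was at 10.16 and 10.15, then 10.26 and 10.32, then 10.14 and 10.27. Their changes lay between -0.11 and 0.14 on day 1 and between 0.05 and 0.17 on day 4, with adjusted p of at least 0.134. Set against the mean of these 3 subunits on the same array, Sdhd was 0.47 and 0.52 above its intact difference on the day 1 arrays and 0.65 and 0.64 on the day 4 arrays. An exact permutation test of 2 arrays against 2 gave its smallest possible two-sided p of 0.333.

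**Figure D2:**
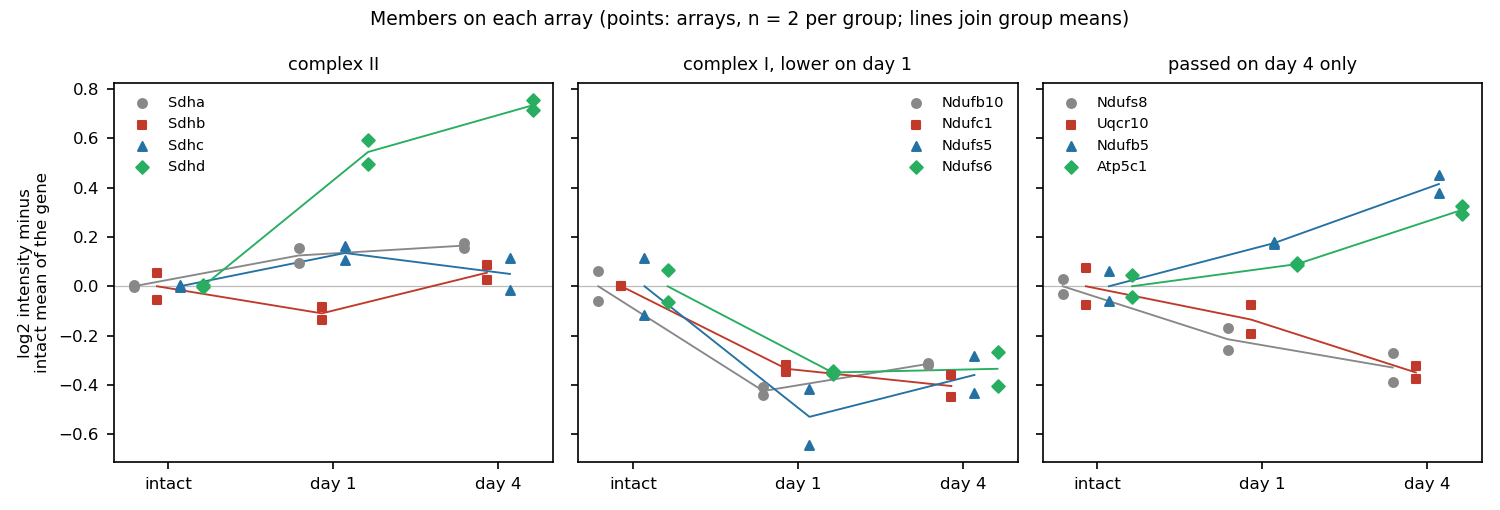
Log2 intensity of single genes minus the gene's mean in intact skin, for complex II (left), the 4 complex I subunits that fell on day 1 (middle) and genes that passed on day 4 only (right). Points are arrays and lines join group means. Sdhd rises away from the other 3 subunits. The 4 complex I genes in the middle, shown because they fell, lie below 0 on every wound array, and the complex I gene Ndufb5 (right) lies above it.

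Complex III, which passes electrons from ubiquinol to cytochrome c, was measured through 8 subunits. None passed on day 1, against 29.3% of all genes, and the median change was 0.02. The unadjusted p was under 0.05 for 1 of the 8 on day 1 (limma), against 8113 of all 19938 genes. On day 4, 1 small subunit was higher and 1 lower (25%), against 26.9% of all genes. Uqcr11 was at 9.53 and 9.48 in intact skin, 9.31 and 9.36 on day 1 and 9.72 and 9.81 on day 4. It was lowest on the day 1 arrays and highest on the day 4 arrays, with a change of 0.26 on day 4 against intact (adjusted p = 0.0462) and of 0.43 from day 1 to day 4 (adjusted p = 0.048). A second probe set gave -0.32 on day 1, 0.11 on day 4 and 0.42 between them. Both calls were marginal: without 1 array the adjusted p was 0.0681 to 0.175 for day 4 and 0.112 to 0.193 between the days, whichever of the 6 was left out. The day 4 call was also lost under 3 rescalings of the arrays (0.0538 to 0.0628), with only the 4 arrays compared (0.0681), all probe sets averaged (0.139) and the replicate block (0.0577), and the call between the days with cyclic loess (0.0504), median centring (0.0542), only the 4 arrays compared (0.112), all probe sets averaged (0.0548) and the replicate block (0.0559).

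Uqcr10, a small subunit beside the Rieske protein, was at 9.19 and 9.34 in intact skin, 9.07 and 9.19 on day 1 and 8.94 and 8.89 on day 4. Day 1 touched the intact range and day 4 lay below it. The change on day 4 was -0.35 (adjusted p = 0.0293), lost without any 1 of the 4 arrays compared (0.0638 to 0.142). Uqcrh, the hinge protein that helps cytochrome c to dock, had the lowest change on day 1 (-0.22, adjusted p = 0.0986), and Uqcrb the highest (0.10, adjusted p = 0.439). The core proteins Uqcrc1 and Uqcrc2 and the Rieske protein Uqcrfs1 did not pass at either time.

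Complex IV, cytochrome c oxidase, reduces oxygen to water at the end of the chain. Of its 7 tissue-restricted isoforms, 3 were higher and 1 lower on day 1 (57.1%). Of the 10 common genes, 1 was lower and none higher (10%), against 29.3% of all genes. On day 4, 1 tissue isoform was lower (14.3%) and no common gene passed, against 26.9% of all genes. For 1 of the 10 common genes limma gave an unadjusted p under 0.05 on day 4, against 7901 of all 19938 genes. The difference between tissue-restricted and common genes was not tested.

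The 3 isoforms that rose on day 1 are the forms of subunits 6a, 7a and 8 known from heart and skeletal muscle. Cox8b was at 10.07 and 9.91 in intact skin, 10.80 and 10.93 on day 1 and 10.13 and 10.22 on day 4. Day 1 stood clear of both other groups. It rose 1.83-fold on day 1 (log2 change 0.88 ± 0.09, adjusted p = 0.00108), a call that held without any 1 array. On day 4 it was 0.19 above intact skin, which did not pass (adjusted p = 0.19), and it fell by 0.69 from day 1 to day 4 (adjusted p = 0.0301). That fall was lost without any 1 of the 6 arrays (0.0697 to 0.158).

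Cox6a2 was at 9.81 and 9.50 in intact skin, 10.30 and 10.55 on day 1 and 9.29 and 9.71 on day 4. Both day 1 arrays were above every other array, and the intact and day 4 arrays overlapped. It rose 1.71-fold on day 1 (0.77 ± 0.18, adjusted p = 0.0191), lost without day 1 array 2 (0.117) or intact array 2 (0.11). Cox7a1 was at 9.13 and 9.04, then 9.43 and 9.62, then 8.81 and 9.11. It rose 1.36-fold on day 1 (0.44 ± 0.12, adjusted p = 0.039), lost with quantile normalization (0.0511) and without any 1 of the 4 arrays compared (0.0597 to 0.19). From day 1 to day 4 the changes were -0.93 for Cox6a2 (adjusted p = 0.0585) and -0.57 for Cox7a1 (adjusted p = 0.0769), neither past the threshold.

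The common partners of these isoforms, which other tissues use, did not pass. Cox6a1 was at 10.48 and 10.52 in intact skin, 10.29 and 10.41 on day 1 and 10.34 and 10.26 on day 4. Cox7a2 was at 9.90 and 9.92, then 9.67 and 9.77, then 10.08 and 9.84. Cox8a was at 11.55 on both intact arrays, then 11.45 and 11.55, then 11.53 and 11.52. Their day 1 changes were -0.15, -0.19 and -0.05, with 95% intervals of -0.34 to 0.04, -0.43 to 0.05 and -0.23 to 0.13. Within an array, the muscle form gained on its partner on day 1 by 0.92 for subunit 6a, 0.63 for subunit 7a and 0.93 for subunit 8. On day 4 these differences were 0.05, -0.18 and 0.21. With 2 arrays against 2, the exact permutation test cannot go below p = 0.333, which each day 1 difference reached.

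**Figure D3:**
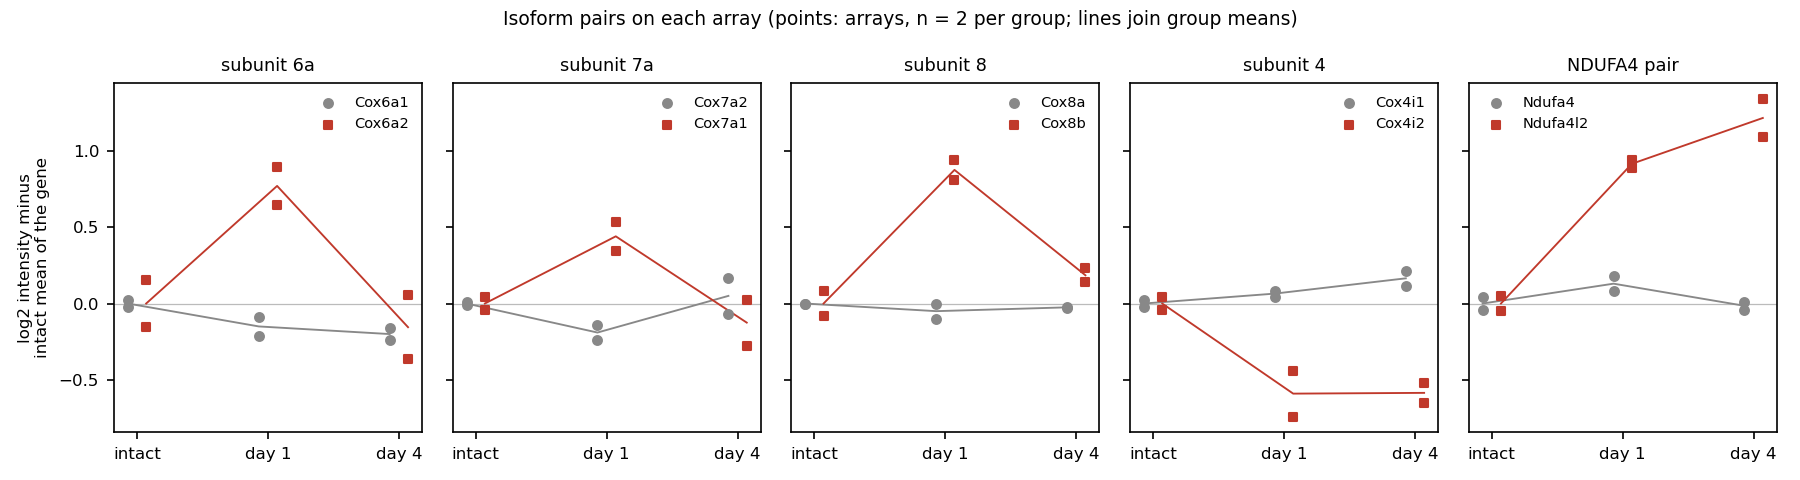
Log2 intensity minus the gene's intact mean for 5 pairs of isoforms, with the common form in grey circles and the tissue-restricted form in red squares. Points are arrays and lines join group means. Cox6a2, Cox7a1 and Cox8b peak on day 1, Cox4i2 is lower and Ndufa4l2 higher on both days, and the common forms stay within 0.25 of 0.

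The muscle isoforms were set beside the markers of skeletal muscle. All 3 isoforms were higher on day 1. On day 4 they changed by -0.155 (Cox6a2), -0.125 (Cox7a1) and 0.185 (Cox8b), and none passed. Of the 16 markers fixed for skeletal muscle, 13 were higher on day 1, with a median change of 0.82, and 8 on day 4, with a median of 0.35. Myh4, the fastest myosin heavy chain, changed by 1.35 and 0.83, Ryr1, the calcium release channel, by 1.30 and 1.04, and Ckm, muscle creatine kinase, by 0.70 and 0.32. The log2 of the summed marker level was 14.37 to 14.39 in intact skin, 15.11 to 15.16 on day 1 and 14.65 to 14.89 on day 4, and only Myh7, of slow fibres, lay near background at 5.97 to 6.27. From day 1 to day 4, Myh4 and Myoz1 fell (changes of -0.52 and -0.51) and no marker rose. The part of this tissue in the isoform values was not tested. Cox7a1 and Cox8b are also made in brown fat. Of 5 markers of brown or beige fat, 1 was lower on day 1, and 2 were higher and 1 lower on day 4. The log2 of their summed level was 10.77 to 10.85 in intact skin, 10.51 to 10.60 on day 1 and 11.04 to 11.13 on day 4. Ucp1, the uncoupling protein that defines these cells, was at 5.09 to 5.31, below the lower quartiles of 5.77 to 5.88 over genes. Cidea (8.29 to 9) and Elovl3 (9.65 to 10.57) were well above them and changed by 0.48 and 0.52 on day 4, both higher, and neither passed on day 1. Dio2 did not pass, and Ppargc1a was lower on both days. The part of brown or beige fat in the isoform values was not tested. Without the 3 muscle isoforms, 2 of 86 members were higher and 6 lower on day 1, or 9.30%, against 29.3% of all genes. These isoforms were among the 5 members higher on day 1, so leaving them out lowers the count by itself.

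**Figure D4:**
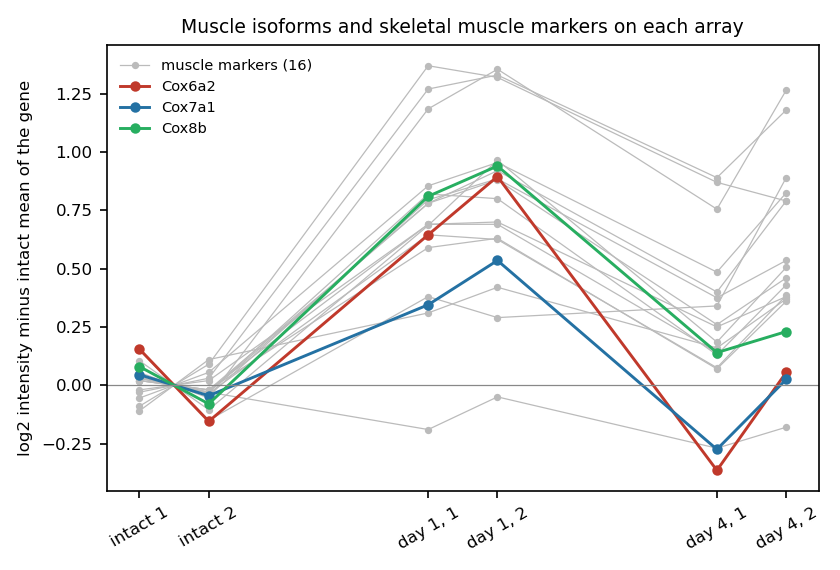
Cox6a2, Cox7a1 and Cox8b (colours) with 16 skeletal muscle markers (grey) on each array, as log2 intensity minus the gene's intact mean. Lines only follow a gene from array to array. The isoforms and all markers but Myh7 are higher on both day 1 arrays than in intact skin, and on day 4 Cox6a2 and Cox7a1 are back in the intact range or below it.

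Promoters are shown for Cox7a1 and Cox8b, muscle forms that rose, and for the common forms Cox6a1 and Cox8a, which did not pass. Each is the 250 bases before the start of the gene in RefSeq (GRCm38.p6), on the gene's own strand. Capitals mark motifs searched on both strands: CAGCTG, an E-box bound by muscle factors of the MyoD family, ACGTG or GCGTG, the core bound by hypoxia-inducible factors, the palindromic site of nuclear respiratory factor 1, and CCGGAAG, a site of ETS factors such as GABP. Cox7a1 lies at chr7:30183921-30184170 (plus strand), Cox8b at chr7:140900447-140900696 (minus), Cox6a1 at chr5:115348959-115349208 (minus) and Cox8a at chr19:7217617-7217866 (minus).
Cox7a1: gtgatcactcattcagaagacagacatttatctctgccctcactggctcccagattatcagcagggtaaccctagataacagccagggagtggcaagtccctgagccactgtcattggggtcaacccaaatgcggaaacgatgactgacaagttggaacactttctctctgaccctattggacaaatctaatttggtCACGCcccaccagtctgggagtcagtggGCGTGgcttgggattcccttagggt
Cox8b: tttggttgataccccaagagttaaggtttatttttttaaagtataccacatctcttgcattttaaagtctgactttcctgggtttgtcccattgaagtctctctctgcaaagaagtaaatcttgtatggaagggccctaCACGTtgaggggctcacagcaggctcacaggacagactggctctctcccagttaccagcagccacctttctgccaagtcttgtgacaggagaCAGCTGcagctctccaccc
Cox6a1: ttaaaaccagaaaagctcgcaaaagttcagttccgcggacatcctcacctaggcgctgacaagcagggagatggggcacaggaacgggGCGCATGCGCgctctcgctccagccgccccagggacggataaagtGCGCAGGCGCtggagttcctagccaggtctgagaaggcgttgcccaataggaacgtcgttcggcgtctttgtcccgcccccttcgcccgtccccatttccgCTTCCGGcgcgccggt
Cox8a: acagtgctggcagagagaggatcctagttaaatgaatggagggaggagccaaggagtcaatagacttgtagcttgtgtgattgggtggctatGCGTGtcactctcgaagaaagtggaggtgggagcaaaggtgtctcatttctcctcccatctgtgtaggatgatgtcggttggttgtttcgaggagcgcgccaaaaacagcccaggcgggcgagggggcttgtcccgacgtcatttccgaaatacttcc
The Cox8b sequence held the E-box 19 bases before the start (position -19) and a hypoxia core at -111. Cox7a1 held hypoxia cores at -53 and -25. Cox6a1 held the nuclear respiratory factor motif at -162 and -117 and the ETS motif at -16, and Cox8a held a hypoxia core at -158 alone. A match describes letters and not binding, and a hypoxia core can lie inside a respiratory factor site, so the shares of these motifs overlap. Promoters were matched for 73 of the 89 members, 78 sequences in all, and none for Cox6a2, Ndufa4l2 or Cox4i2. Over these, the nuclear respiratory factor motif was in 17.9%, against 3.74% of all 32851 promoters of the same length, the ETS motif in 16.7% against 6.91%, the hypoxia core in 53.8% against 38.6%, and the E-box in 7.69% against 13%.

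Cox4i2, the isoform of subunit 4 known from lung and from pericytes, fell on both days. It was at 7.84 and 7.76 in intact skin, 7.36 and 7.06 on day 1 and 7.15 and 7.28 on day 4. No wound array reached the intact range. The changes were -0.59 ± 0.12 (adjusted p = 0.011) and -0.58 ± 0.12 (adjusted p = 0.0134). The day 1 call was lost without intact array 1 (0.0771) or 2 (0.0527), and the day 4 call without either of these (0.0903 and 0.0609) or day 4 array 1 (0.061). Its partner Cox4i1, the form of most tissues, was at 9.88 and 9.93, then 9.95 and 9.99, then 10.12 and 10.02, and did not pass.

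Ndufa4l2 had the largest rise of all 89 genes on both days. Its product resembles NDUFA4, is a known target of hypoxia-inducible factor 1 and lowers complex I activity in cells short of oxygen. It was at 9.11 and 9.01 in intact skin, 9.95 and 10 on day 1 and 10.15 and 10.40 on day 4. Each group lay above the one before it. The gene rose 1.89-fold on day 1 (0.92 ± 0.10, adjusted p = 0.0013) and 2.32-fold on day 4 (1.22 ± 0.10, adjusted p = 0.000713), calls that held without any 1 array. The step from day 1 to day 4 was 0.30 (adjusted p = 0.188). Ndufa4 itself was at 9.58 and 9.66, then 9.70 and 9.80, then 9.63 and 9.58, with changes of 0.13 and -0.01 that did not pass.

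Cox4i2 and Ndufa4l2 are both known from pericytes, the cells that wrap small vessels, and they moved in opposite directions. Of 10 markers of pericytes and smooth muscle, 3 were higher and 1 lower on day 1 and 5 were higher and 1 lower on day 4, with median changes of 0.03 and 0.22. Pdgfrb, the growth factor receptor of these cells, changed by 0.96 and 1.03, Rgs5 by 0.54 and 0.80 and Abcc9 by 0.49 and 0.45, all higher, whereas Cspg4 changed by -0.38 and -0.51. The log2 of the summed marker level was 12.04 to 12.16 in intact skin, 12.19 to 12.28 on day 1 and 12.38 to 12.45 on day 4, and Higd1b was near background at 5.04 to 5.21. The part of these cells in both genes was not tested.

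Cox7a2l, named above as a factor of supercomplexes and counted here with the common complex IV genes, was the only one of them to pass. It was at 8.72 and 8.77 in intact skin, 8.45 and 8.43 on day 1 and 8.85 and 8.82 on day 4. The day 1 arrays were the lowest and the day 4 arrays the highest. The changes were -0.31 on day 1 (adjusted p = 0.0196), 0.09 on day 4 (adjusted p = 0.385) and 0.40 from day 1 to day 4 (adjusted p = 0.0495), and a second probe set gave -0.26, 0.11 and 0.36. The day 1 call was lost without any 1 of the 4 arrays compared (0.0632 to 0.101) and that between the days without any 1 of the 6 (0.111 to 0.214). The call between the days was also lost with cyclic loess (0.0558), median centring (0.0602), only the 4 arrays compared (0.113), all probe sets averaged (0.0661) and the replicate block (0.0597).

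The remaining complex IV isoforms gave no call. Cox6b2, a testis form, was at 6.39 and 6.56, then 6.40 and 5.94, then 6.21 and 6.26, and its partner Cox6b1 changed by 0.11 and 0.18. Without day 1 array 1 the Cox6b2 change of -0.54 passed (adjusted p = 0.0263). The testis forms Cox7b2 and Cox8c and the common Cox7b changed by 0.11, -0.04 and 0.03 on day 1 and by 0.03, -0.07 and 0.01 on day 4.

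ATP synthase was measured through 17 genes: 5 of the catalytic F1 head and its central stalk, 3 of the rotating c ring and 9 of the outer stalk and membrane part. None passed on day 1, against 29.3% of all genes, and the median change was 0.01. On day 1 limma gave an unadjusted p under 0.05 for 3, against 8113 of all 19938 genes. On day 4 only Atp5c1, the gamma subunit that turns inside the F1 head, passed (5.88%, against 26.9% of all genes). It was at 10.66 and 10.57 in intact skin, 10.70 and 10.71 on day 1 and 10.94 and 10.91 on day 4. The day 4 arrays were above all others, and the change was 0.31 ± 0.07 (adjusted p = 0.0241), lost without any 1 of the 4 arrays compared (0.072 to 0.12).

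The other ATP synthase genes stayed under the threshold throughout. The lowest change on day 1 was -0.31 for Atp5mpl, a small membrane protein of the enzyme (adjusted p = 0.0883), and the highest 0.22 for the c ring gene Atp5g3. The lowest on day 4 was -0.21 for Atp5e, the epsilon subunit (adjusted p = 0.0803). The 3 c ring genes, whose mature proteins are alike, changed from day 1 to day 4 by -0.34 (Atp5g1), -0.19 (Atp5g2) and -0.05 (Atp5g3), none past the threshold. No ATP synthase gene passed between the days, against 2.23% of all genes. Between the days limma gave an unadjusted p under 0.05 for 5, against 3765 of all 19938 genes.

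Other genes of mitochondrial respiration were taken from lists by role, to be read against the 29.3% of all genes called on day 1 and 26.9% on day 4. Of the 13 subunits encoded in mitochondrial DNA, 2 had a probe set of their own, ND3 and COX2, and neither passed (changes of 0.12 and 0.18 on day 1 and of -0.01 and 0.06 on day 4). Cycs, somatic cytochrome c, rose by 0.26 on day 1 (adjusted p = 0.0389) and Cyc1, the cytochrome of complex III, did not pass. Of 34 assembly factors outside the symbol rule, 3 were higher and 2 lower on day 1 (14.7%), and 5 higher and 1 lower on day 4 (17.6%). Sdhaf2, which attaches flavin to Sdha, passed on both days (0.31 and 0.29). Acad9, of complex I assembly, fell by 0.40 on day 1 (adjusted p = 0.00833) and was 0.46 higher on day 4 than on day 1 (adjusted p = 0.0398).

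In the 16 genes of pyruvate oxidation and the citrate cycle, 2 were higher and 2 lower on day 1 (25%), and 3 higher and 3 lower on day 4 (37.5%). Suclg2, of succinyl-CoA ligase, rose by 0.38 and 0.45, and Pdha1, of pyruvate dehydrogenase, by 0.31 on both days. Cs, citrate synthase, was at 11.14 on both intact arrays, 10.86 and 10.89 on day 1 and 10.88 and 10.90 on day 4. Its changes were -0.27 (adjusted p = 0.0302) and -0.25 (adjusted p = 0.0395). Of 4 pyruvate dehydrogenase kinases, which switch pyruvate oxidation off, Pdk4 rose by 1.86 on day 1 (adjusted p = 0.00163) and Pdk3 fell by 0.41 and 0.49.

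Of 15 regulators of mitochondrial biogenesis and mitochondrial DNA, 1 was lower on day 1 (6.67%), and 1 higher and 1 lower on day 4 (13.3%), against 29.3% and 26.9% of all genes. Ppargc1a, the coactivator that drives mitochondrial biogenesis in muscle and brown fat, was at 8.39 and 8.37 in intact skin, 7.70 and 7.11 on day 1 and 6.98 and 7.18 on day 4. All wound arrays were below the intact ones, with changes of -0.98 (adjusted p = 0.01) and -1.30 (adjusted p = 0.00424). Its relative Ppargc1b was 0.35 higher on day 4 (adjusted p = 0.0498). Neither Nrf1 nor Gabpa, whose motifs were searched in the promoters, passed. Of 8 carriers and channels, 3 were higher on day 1 (37.5%) and 1 on day 4 (12.5%). They were Ucp3, an uncoupling protein of skeletal muscle (1.34 on day 1), Slc25a4, the muscle form of the ADP/ATP carrier (0.29 on day 1), and Vdac3, an outer membrane channel (0.26 and 0.37). Of 8 adipocyte markers, 1 was higher and 2 lower on day 1 and 1 lower on day 4.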

How the data were processed

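The table the authors deposited holds a log2 intensity for each probe set and array, and RMA made it, per the submitters' processing notes. RMA corrects background, brings arrays to a common distribution and summarises probes. The sources used here do not give its version, and values have 2 decimals. Of 35556 probe sets, 21789 had 1 symbol and were used. Another 1621 had several symbols and 12146 had no entry in the annotation. The brightest probe set per gene gave 19938 genes. Levels were not compared between probe sets.

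All 6 arrays were fitted with limma 3.58.1 in R 4.3.3 (a mean per group, then eBayes, with 3 residual and 3.4 prior degrees of freedom). Two-sided p-values were adjusted (Benjamini-Hochberg) across all genes in each contrast. The fit was tested on simulated data. With 2 arrays a group, the number of arrays limits the precision. The members and lists were chosen with earlier results of these data known. Named were all members past the threshold in any contrast, the isoform pairs, the Sdh genes, the extremes of each complex, and of each other list up to 4 genes with the smallest p. The alternatives were other scalings, priors, probe set rules and filters, the replicate number as a block, and each array left out. Promoters came from RefSeq (GRCm38.p6).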

Additional observations from a re-analysis of the deposited data

Results flagged for a closer look

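For 3 genes the changes on day 1 and day 4 differed from each other by limma's test of day 4 against day 1 wounds. The difference was -0.69 for Cox8b, 0.40 for Cox7a2l and 0.43 for Uqcr11, each in the same direction for both day 4 arrays against both day 1 arrays, with adjusted p of 0.0301, 0.0495 and 0.048. Each of these calls was lost without any 1 of the 6 arrays. Those of Cox7a2l and Uqcr11 were also lost with cyclic loess, median centring, only the 4 arrays compared, all probe sets averaged and the replicate block (adjusted p of 0.0597 and 0.0559 with the block), and that of Cox8b with only the 4 arrays compared (0.0833). The groups hold 2 arrays each, so single arrays were not examined as outliers.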

How the results depend on the processing

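No named gene changed direction where it was called. Of 11 calls on day 1, 10 were kept in all 9 alternatives that used every sample or only the groups compared, and of 11 on day 4, 9 were. Against 5 higher and 6 lower members on day 1, leaving out 1 array gave 3 to 5 and 0 to 6. On day 4, against 5 and 6, it gave 2 to 4 and 0 to 5. Between the days, against 2 and 1, it gave 0 and 0. The members higher between the days were 0 with cyclic loess, median centring, only the 4 arrays compared, all probe sets averaged and the replicate block. The members lower were 2 with median centring, a mean-variance trend or a robust prior and 0 with only the 4 arrays compared. The fits without an array, on only the 4 arrays compared or with the replicate block have fewer residual degrees of freedom. Leaving out an array of the third group gives the same values as the fit on only the 4 arrays compared, so these losses are not separate. Over all genes, too, calls became fewer in each of the 3 comparisons, whichever array was left out. With only the 4 arrays compared, 28.5% of all genes were called on day 1, against 29.3% in the main fit. On day 4 this share was 24.6%, against 26.9%, and between the days 0.0853%, against 2.23%. The losses are therefore not particular to the members. The cause of the losses was not tested.

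The labels do not tie replicate numbers across groups, and the numbers were not taken to pair the samples. Deviations of same-numbered arrays correlated at 0.01 between intact and day 1, 0.02 between intact and day 4 and 0.69 between the wound days, where hair markers also differed between array 1 and array 2 of each group; their part in this was not tested. With the replicate block, 5 members were higher and 6 lower on day 1, 4 and 6 on day 4, and 0 and 1 between the days. The median half-width of a member's 95% interval was 0.19 log2 units. Smaller changes were not detectable for most members, and larger ones could also miss the threshold, since the intervals are not adjusted over genes. On day 1, for example, Ndufb2 changed by -0.255 and did not pass (limma's adjusted p = 0.0541).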
